A study of Mus musculus with 8 samples.

Results

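Mouse pre-iPSCs in which 3 histone methyltransferases were targeted by siRNA were compared directly with pre-iPSCs in which Cbx3 was targeted. Pre-iPSCs are cells that have started on the way from a somatic cell to an induced pluripotent stem cell and have stopped short of it. The comparison used 5 of the 8 arrays of the series: the 2 arrays of cells with siRNA to Ehmt1, Ehmt2 and Setdb1 together, named 3XHMT, and the 3 arrays of cells with siRNA to Cbx3. The other 3 arrays came from cells with siRNA to luciferase, the control, which shows on which side of the untargeted state a gene stood. All cells were kept in standard embryonic stem cell medium and were exposed to siRNA for 3 days, after which total RNA was taken up in Trizol and labelled with biotin for Affymetrix arrays. Every probe set annotated to 1 gene symbol entered, and each gene was followed by its probe set with the highest mean over the 8 arrays, which gave 18193 genes. The labels name the arrays of a group biological replicates and do not say what was repeated, so p-values measure only the spread between these samples.

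Methylation of lysine 9 of histone H3 marks silent chromatin. Setdb1 places it at many repressed loci, and Ehmt1 and Ehmt2, also called GLP and G9a, form a complex that places mono- and dimethylation in gene-rich chromatin. The chromodomain of HP1 proteins binds this mark, and Cbx3 encodes the family member HP1 gamma, which is also found in the bodies of active genes. The comparison therefore sets cells with siRNA to the enzymes beside cells with siRNA to a protein that reads their product. In reprogramming, H3K9 methylation is known as a barrier that keeps pluripotency genes shut in stalled cells.

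The starts of 6 genes that differed between the knockdowns are shown first, because the genes that were higher in 3XHMT cells had fewer CG dinucleotides around their starts than measured genes at large. The windows run from 250 bases before to 50 bases after an annotated start, 5′ to 3′ on the gene's strand, and are taken from RefSeq on GRCm38.p6, with each CG in capitals. Aass, Akr1c13, Akr1c18, Zfp42 and Nr0b1 were among the highest in 3XHMT relative to Cbx3 cells, and Krt8 was among the lowest.
Aass, chr6:23132937-23133236, minus strand: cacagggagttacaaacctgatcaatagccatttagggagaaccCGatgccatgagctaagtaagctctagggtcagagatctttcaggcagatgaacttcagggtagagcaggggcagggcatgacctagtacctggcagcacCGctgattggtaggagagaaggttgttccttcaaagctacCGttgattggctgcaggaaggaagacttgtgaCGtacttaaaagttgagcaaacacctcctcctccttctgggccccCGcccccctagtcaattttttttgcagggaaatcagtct
Akr1c13, chr13:4190937-4191236, plus strand: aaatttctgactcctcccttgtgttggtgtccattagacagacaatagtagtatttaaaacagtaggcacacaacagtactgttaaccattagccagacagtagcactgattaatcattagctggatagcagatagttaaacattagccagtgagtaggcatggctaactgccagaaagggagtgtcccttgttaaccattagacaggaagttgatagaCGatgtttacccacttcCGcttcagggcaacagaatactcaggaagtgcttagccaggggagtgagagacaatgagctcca
Akr1c18, chr13:4150597-4150896, minus strand: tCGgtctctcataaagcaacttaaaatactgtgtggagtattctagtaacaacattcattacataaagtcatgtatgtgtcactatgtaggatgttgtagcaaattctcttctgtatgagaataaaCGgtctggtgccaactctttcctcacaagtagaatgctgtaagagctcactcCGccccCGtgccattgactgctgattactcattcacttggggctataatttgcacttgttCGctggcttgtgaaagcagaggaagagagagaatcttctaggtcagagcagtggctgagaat
Zfp42, chr8:43306960-43307259, minus strand: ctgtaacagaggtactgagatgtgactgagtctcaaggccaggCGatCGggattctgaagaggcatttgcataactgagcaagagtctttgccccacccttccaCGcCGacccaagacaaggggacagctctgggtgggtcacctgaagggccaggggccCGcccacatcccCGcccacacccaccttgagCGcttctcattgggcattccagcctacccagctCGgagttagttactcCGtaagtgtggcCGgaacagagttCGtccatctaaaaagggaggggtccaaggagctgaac
Nr0b1, chrX:86191525-86191824, plus strand: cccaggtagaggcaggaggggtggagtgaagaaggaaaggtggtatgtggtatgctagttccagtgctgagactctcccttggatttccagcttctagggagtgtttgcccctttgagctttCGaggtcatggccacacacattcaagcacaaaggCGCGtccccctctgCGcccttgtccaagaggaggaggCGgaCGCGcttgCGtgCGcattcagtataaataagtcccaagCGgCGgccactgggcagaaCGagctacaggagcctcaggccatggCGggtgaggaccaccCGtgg
Krt8, chr15:102004293-102004592, minus strand: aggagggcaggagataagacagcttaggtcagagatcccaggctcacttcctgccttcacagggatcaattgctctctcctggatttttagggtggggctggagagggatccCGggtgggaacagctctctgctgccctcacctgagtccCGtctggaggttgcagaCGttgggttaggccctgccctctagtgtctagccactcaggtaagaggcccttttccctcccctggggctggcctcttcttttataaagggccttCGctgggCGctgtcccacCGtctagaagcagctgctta

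The windows of Akr1c13, Aass and Akr1c18 held 2, 5 and 5 CG dinucleotides, and those of Krt8, Zfp42 and Nr0b1 held 6, 11 and 14. Of all 18109 windows of measured genes, 23.5% had 5 or fewer. Windows were available for 117 of the 147 genes higher in 3XHMT, 98 of the 128 lower genes and 14452 of the 18193 measured genes, and a gene with several annotated starts had several windows. The median number of CG was 9 over the 168 windows of higher genes, 15.5 over the 146 windows of lower genes and 16 over all. A count of 15 or more was found in 35.1% of the windows of higher genes, 50.7% of those of lower genes and 53.7% of all windows. These values describe the members and were not tested.

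Motifs were looked for in the same windows on both strands, and none of the motifs contains another. The octamer ATGCAAAT, known as a site of POU domain factors, was present in 6 windows of higher genes (3.57%), in 0 windows of lower genes and in 252 of all windows (1.39%). The window of Zfp42 held it. TATAAA stood in 10.7%, 6.16% and 9.77% of the windows of higher, lower and all genes, and the window of Nr0b1 held it, as did that of Krt8 together with the E-box CAGGTG. That E-box, which the window of Zfp42 also held, was found in 23.8%, 24.0% and 20.0%. The E-box CACGTG, known as a site of Myc and Usf factors, was found in 7.74% of the windows of higher genes, 9.59% of those of lower genes and 8.72% of all. The E2F-type motif GGCGGGA was found in 10.7%, 15.1% and 16.7%.

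The 8 arrays had medians between 5.87 and 5.90 on the log2 scale. The signal of an 18S ribosomal RNA control probe set divided them into 3 sets that do not follow the siRNA: 3XHMT 1, Cbx3 2 and control 2 read 12.6 to 12.8, 3XHMT 2, Cbx3 3 and control 3 read 9.98 to 10.2, and the remaining pair (Cbx3 1, control 1) 11.5 and 11.2. After the group means were subtracted, knockdown arrays of 1 set correlated over genes by 0.50 (3XHMT 1 with Cbx3 2) and 0.54 (3XHMT 2 with Cbx3 3). The deviations of the 2 3XHMT arrays mirror each other, so these values are not independent. Results that the set changes are given with the set as a block too. Among the marker lists, the mean log2 level of 8 fibroblast markers was 5.32 to 5.52 in 3XHMT and 5.39 to 5.56 in Cbx3 arrays, with 0 members changed between them. Single fibroblast markers went both ways, from 1.09 (Dcn) to -0.79 (Col3a1). The mean of 6 epithelial markers was 7.56 to 7.65 against 8.19 to 8.66, that of 5 neuron markers 7.05 to 7.49 against 5.90 to 6.18, and that of 7 pluripotency markers 8.63 to 9.35 against 7.43 to 8.04. In these lists 1 epithelial (Krt8), 1 neuron (Nefl) and 3 pluripotency markers (Zfp42, Dppa2 and Dppa4) changed. Of the other pluripotency markers, Nanog, Sox2 and Esrrb differed by -0.50, -0.30 and -0.29 and Pou5f1 by 0.20. Macrophage, endothelial, trophoblast and primitive endoderm markers had 0 members changed. These are bulk samples, in which fewer cells of a type and less RNA per cell cannot be told apart.

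The transcripts targeted by siRNA were set against each other first. The 3 bright Cbx3 probe sets, which are also annotated to the pseudogene Cbx3-ps5, were lower in the Cbx3 arrays. The brightest of them read 13.13 and 13.03 on the log2 scale in the 3XHMT arrays and 12.25, 11.83 and 11.79 in the Cbx3 arrays. Cbx3 signal in Cbx3 cells was thus 46.0% of that in 3XHMT cells (limma adjusted p = 0.0380 over all probe sets), and at the other bright probe sets it was 40.9% (adjusted p = 0.0384) and 46.0% (adjusted p = 0.0418). The dim probe sets of Cbx3 differed by 0.18 and 0.01 on the log2 scale (adjusted p = 0.975 and 1.00). The call of the brightest probe set was lost under each omission of 1 array (adjusted p = 0.0503 to 0.218).

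The methyltransferase transcripts were lower in 3XHMT than in Cbx3 arrays, without passing the test. The brightest Ehmt2 probe set read 9.78 and 9.48 against 10.71, 10.57 and 10.18, which put 3XHMT at 55.1% of Cbx3 (limma adjusted p = 0.345; 0.0200 with the 18S set as a block). The brightest Setdb1 probe set read 8.60 and 9.08 against 9.30, 9.44 and 9.52, or 66.8% (adjusted p = 0.267; 0.0268 with the block). Ehmt1 read 10.11 and 10.54 against 10.32, 10.42 and 10.68, or 90.4% (adjusted p = 0.972; 0.361 with the block). The arrays of the groups did not overlap for Ehmt2 and Setdb1, whereas for Ehmt1 1 of the 3XHMT arrays lay within the range of the Cbx3 arrays. Control read 10.60, 10.35 and 9.685 for Ehmt2, and 1 of the 3XHMT arrays lay within that range. The Ehmt2 means of 3XHMT and Cbx3 differed from control by -0.58 and 0.28. For Setdb1 and Ehmt1, 3XHMT minus control was -0.66 and -0.33. No methyltransferase passed against control (limma adjusted p = 0.339 or more over genes). A dimmer Ehmt2 probe set differed by -0.52 (adjusted p = 0.654), and the dimmer Setdb1 probe sets by -0.33 and -0.09 (adjusted p = 0.894 and 0.995).

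Between the knockdowns, 275 of 18193 genes changed (1.51%), 147 higher in 3XHMT (0.808%) and 128 lower (0.704%), by limma with Benjamini-Hochberg adjustment at 0.05. An unadjusted p under 0.05 was reached by 2075 genes, 1027 higher and 1048 lower. In the same fit, 42 genes (0.231%) differed between 3XHMT and control and 81 (0.445%) between Cbx3 and control. At each of the 275 genes the arrays of the 2 groups did not overlap, which was so at 26.7% of all genes. The rises reached further than the falls: the median size of the difference was 1.32 on the log2 scale over the higher genes and 1.09 over the lower ones, and 115 higher and 75 lower genes differed by 2-fold or more. With the 18S set as a block 1660 genes changed (9.12%), 854 higher (4.69%) and 806 lower (4.43%), among them all 275. Without limma's variance moderation, Mgat4c alone of the 85 changed genes named here kept its call. The count rests on both 3XHMT arrays, since it was 24 without 3XHMT replicate 1 and 22 without 3XHMT replicate 2, and it was 77, 67 and 112 without Cbx3 replicates 1, 2 and 3. Of 85 changed genes named here, Aass, Dppa4, Lama3, Mgat4c, Pcdhb17 and Slc9b1 passed under all 8 omissions of an array, and each of the others lost its call under at least 1.

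**Figure D1:**
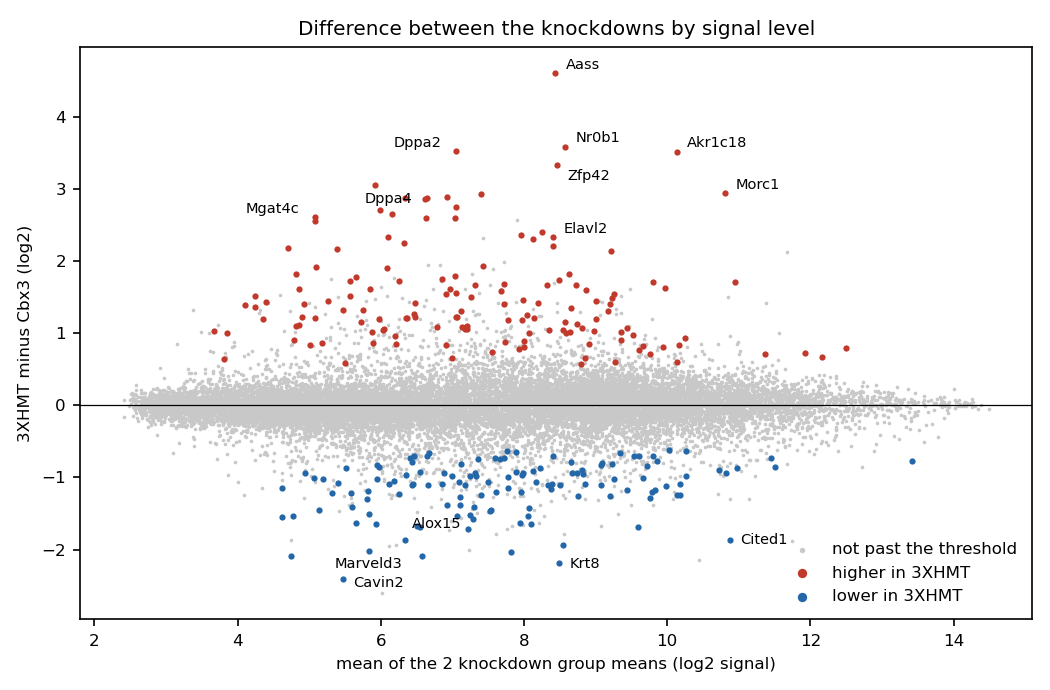
Each point is 1 of 18193 genes, with the mean of the 3XHMT and Cbx3 group means on the x axis and the 3XHMT minus Cbx3 difference on the y axis, both on the log2 scale. The 147 genes higher in 3XHMT reach 4.62 (Aass) and the 128 lower genes reach -2.41 (Cavin2), and changed genes lie across the range of levels.

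The genes with the largest rises in 3XHMT relative to Cbx3 cells were of mixed function. Aass, which encodes the bifunctional enzyme that opens lysine breakdown, read 11.29 and 10.20 in the 3XHMT arrays, 6.43, 5.69 and 6.26 in the Cbx3 arrays and 5.77, 4.98 and 5.64 in control. The 3XHMT arrays stood alone, with Cbx3 and control arrays close together. The difference was 24.6-fold, or 4.62 ± 0.37 (SE) on the log2 scale (limma adjusted p = 0.00304). Within the 18S sets it was 5.599 and 3.94.

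Mgat4c, a glycosyltransferase gene, had the lowest adjusted p of the genes named here, at 0.000829. It read 6.30 and 6.47 in 3XHMT arrays against 3.83, 3.68 and 3.79 in Cbx3 and 3.50, 3.73 and 3.88 in control, a difference of 2.62 ± 0.14 (SE). Slc27a2, which encodes a very long chain acyl-CoA synthetase, differed by 2.37 ± 0.27 (adjusted p = 0.0102), and Scgb3a1, a secretoglobin gene, by 2.22 ± 0.30 (adjusted p = 0.0159). In all 3, as in Aass, the Cbx3 mean lay within 0.67 of control and the 3XHMT mean at least 2.63 above it. With Aass these are the 4 genes that rose (0 fell) among 57 measured members of a liver, gut and kidney list. Most entries of that list are enzyme genes, but Scgb3a1 is not. The share changed was 7.02% beside 1.51% of all genes, while the median of that list was -0.04 beside -0.003 over all genes. This and the lists below were written with earlier results of these data known, so their shares describe the members and were not tested.

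Slc9b1, a sodium-hydrogen exchanger gene, read 7.997 and 7.56 in 3XHMT, 4.91, 5.23 and 4.57 in Cbx3 and 5.70, 6.05 and 5.87 in control, so that the knockdowns stood on opposite sides of control. Its difference was 2.88 ± 0.22 (SE; limma adjusted p = 0.00304). Vat1l differed by 2.94 ± 0.47 (adjusted p = 0.0256), and Hbb-y, the embryonic beta-like globin gene, by 3.07 ± 0.48 (adjusted p = 0.0245). Hbb-y read 7.01 and 7.89 in 3XHMT, 4.87, 3.77 and 4.51 in Cbx3 and 7.04, 5.95 and 7.45 in control: the 3XHMT arrays lay near control and the Cbx3 arrays below it.

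**Figure D2:**
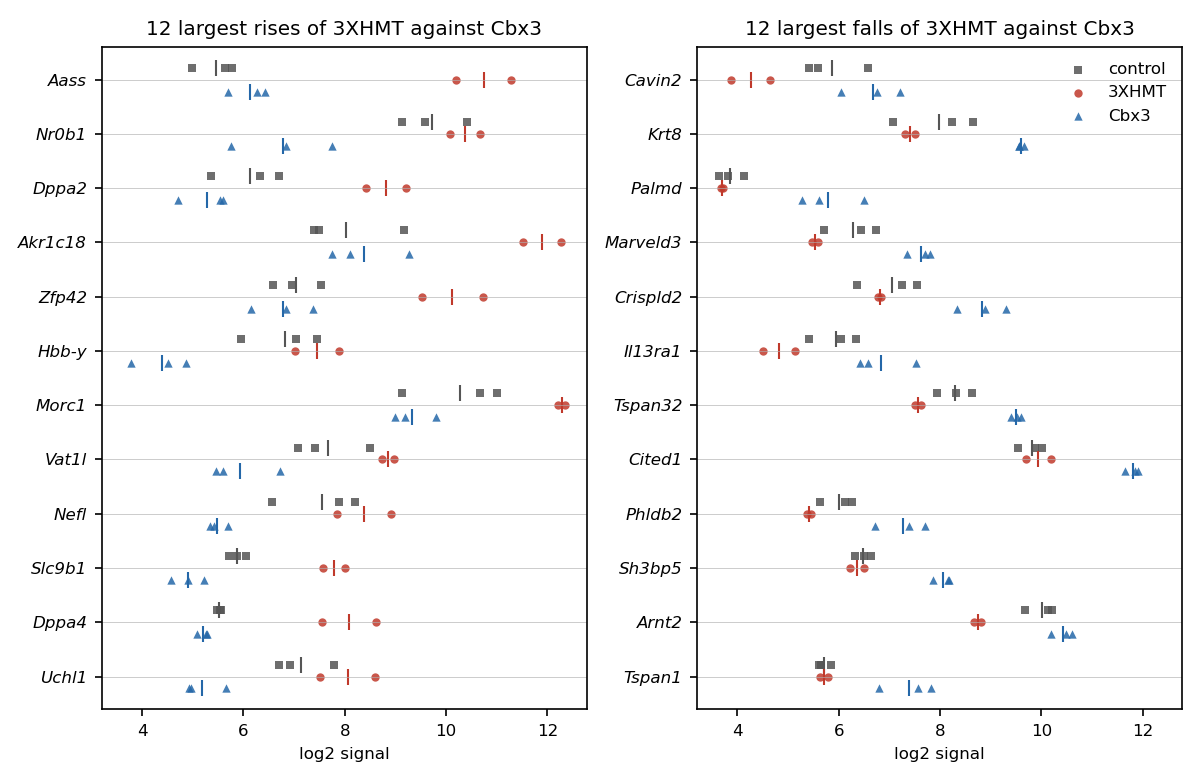
Log2 signal of each array for the 12 largest rises (left) and the 12 largest falls (right) of 3XHMT against Cbx3 among changed, named genes, with control as squares, 3XHMT as circles, Cbx3 as triangles and vertical ticks at group means. The 3XHMT and Cbx3 points do not overlap in any row, and control lies near 3XHMT for some genes (Nr0b1, Cited1) and near Cbx3 for others (Aass, Zfp42).

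Of 54 measured pluripotency genes, 7 rose in 3XHMT relative to Cbx3 cells, 0 fell and 47 did not pass, and the list's median difference was 0.23 against -0.003 over all genes. The share changed was 12.96%, beside 1.51% of all genes. The 7 were Nr0b1, Dppa2, Zfp42, Morc1, Dppa4, Eras and Phc1. The block called 13 higher and 0 lower. In all, 37 of the 54 differences were positive. Markers of other cell types are given above, and their part in this result was not tested.

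Zfp42, the REX1 gene used as a marker of the naive state, read 10.73 and 9.52 in 3XHMT arrays, 6.15, 7.37 and 6.83 in Cbx3 and 6.59, 7.53 and 6.97 in control. Its Cbx3 and control arrays overlapped, while the difference between the knockdowns was 3.34 ± 0.45 (SE; limma adjusted p = 0.0151). Dppa4, which with Dppa2 encodes a pair of SAP domain proteins of pluripotent cells, read 8.61 and 7.55 against 5.28, 5.08 and 5.25, with control at 5.48 to 5.55, a difference of 2.88 ± 0.26 (adjusted p = 0.00545). Dppa2 read 9.20 and 8.42 against 4.71, 5.59 and 5.53, with control at 5.37, 6.32 and 6.71, a difference of 3.54 ± 0.43 (adjusted p = 0.0118). For these 3 genes the 3XHMT arrays lay above every other array.

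Nr0b1, which encodes the nuclear receptor DAX1, showed another order. It read 10.67 and 10.08 in 3XHMT, 7.75, 6.84 and 5.75 in Cbx3 and 10.42, 9.58 and 9.14 in control, with a difference between the knockdowns of 3.60 ± 0.56 (SE; limma adjusted p = 0.0244). The 3XHMT arrays overlapped control and the Cbx3 arrays lay below both. Eras, an embryonic stem cell Ras gene, followed the same order at 9.66 and 10.30 against 8.36, 8.38 and 8.72, with control at 9.29 to 9.92, a difference of 1.49 ± 0.24 (adjusted p = 0.0268). Phc1, a Polycomb subunit gene, differed by 0.72 ± 0.13 (adjusted p = 0.0340), at 11.60 and 11.84 in 3XHMT, 10.97 to 11.02 in Cbx3 and 11.54 to 11.73 in control.

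Morc1, which encodes a GHKL ATPase known from germ cells and transposon silencing, read 12.22 and 12.34 in 3XHMT arrays. It read 8.998, 9.80 and 9.19 in Cbx3 and 9.14, 11.01 and 10.67 in control, and the difference was 2.95 ± 0.49 (SE; limma adjusted p = 0.0299). Control lay between the knockdowns with a wide spread. Nanog, by contrast, was not separated. It read 8.15 and 7.72 in 3XHMT and 7.79, 9.28 and 8.25 in Cbx3, above the 4.87 to 5.41 of control in every knockdown array, and the difference between the knockdowns was -0.50 ± 0.39 (adjusted p = 0.761).

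The factors used for reprogramming did not pass either. Pou5f1 differed by 0.20 ± 0.19 (SE), Sox2 by -0.30 ± 0.56 and Klf4 by -0.46 ± 0.36, with limma adjusted p of 0.831, 0.949 and 0.767. Esrrb differed by -0.29 ± 0.16 (adjusted p = 0.610). Pou5f1 stood at 12.83 to 13.13 in all 5 knockdown arrays, so the probe set was bright in both groups. The errors of Sox2 and Klf4 leave differences of either sign.

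Of 65 measured neuronal and neural genes, 6 rose in 3XHMT relative to Cbx3 cells, 1 fell and 58 did not pass, so that 10.8% changed beside 1.51% of all genes, with a median of 0.13. The block called 14 higher and 4 lower. Nefl, the light neurofilament gene, read 7.84 and 8.91 in 3XHMT, 5.42, 5.33 and 5.69 in Cbx3 and 6.55, 7.88 and 8.20 in control, a difference of 2.89 ± 0.48 (SE; limma adjusted p = 0.0277). Its second probe set gave 2.36 (adjusted p = 0.126). Uchl1, a ubiquitin hydrolase gene abundant in neurons, differed by 2.87 ± 0.41 (adjusted p = 0.0182).

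Elavl2, a neuronal RNA-binding protein gene, read 9.33 and 9.82 in 3XHMT, 7.70, 6.99 and 7.03 in Cbx3 and 8.998 to 9.47 in control. The Cbx3 arrays alone were low, and the difference was 2.34 ± 0.26 (SE; limma adjusted p = 0.0100). Neurod1, a proneural transcription factor gene, had the opposite placement: 7.04 and 7.65 in 3XHMT against 4.45, 4.87 and 4.57 in Cbx3 and 4.67 to 5.56 in control, a difference of 2.72 ± 0.28 (adjusted p = 0.00784). Prickle2, a planar polarity gene, differed by 1.22 ± 0.22 (adjusted p = 0.0359) and Arpp21 by 1.67 ± 0.31 (adjusted p = 0.0401). In both the 2 knockdowns lay below the control mean, Cbx3 by 1.76 and 2.37 and 3XHMT by 0.53 and 0.70, and at its second probe set Arpp21 differed by 0.004. Stmn2, which encodes a neuronal microtubule regulator, read 12.51 and 12.98 against 11.12, 9.68 and 11.03 and missed the threshold (2.13 ± 0.43, adjusted p = 0.0548; 0.00168 with the block).

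The member of this list that fell was Ppp1r9a, which encodes neurabin. It read 7.44 and 7.53 in 3XHMT against 8.43, 8.35 and 8.59 in Cbx3 and 8.40 to 8.67 in control, a difference of -0.97 ± 0.14 (SE; limma adjusted p = 0.0175), and the mean of its probe sets gave -0.52 (adjusted p = 0.204). The mean of the 5 neuron markers was higher in both 3XHMT arrays than in any Cbx3 array, Nefl alone of them changed, and whether the make-up of the cells has a part in the list's differences was not tested. Outside the list, further genes with known roles in neurons rose: Crmp1 (1.91), Gabra2 (1.92) and Slc17a6 (1.69), which encode a collapsin response mediator, a GABA receptor subunit and a vesicular glutamate transporter. These 3 were chosen after their values were seen. At the second probe set Gabra2 differed by 0.89 (adjusted p = 0.311) and Slc17a6 by 1.13 (adjusted p = 0.271).

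Among genes ordered along the chromosomes, 8 runs of adjacent measured genes changed in the same direction, and all 8 were higher in 3XHMT. They held 17 of the 274 changed genes placed in order, among 18145 placed genes, and the number of runs was not tested. The longest was 6430553K19Rik, Dppa4 and Dppa2 on chromosome 16, where the unnamed model 6430553K19Rik read 4.15 and 4.23 in 3XHMT against 3.07, 3.09 and 3.30 in Cbx3, at the dim end of the array (difference 1.04 ± 0.12 SE, limma adjusted p = 0.0113). The others were pairs: Akr1c18 and Akr1c13, Pcdhb20 and Pcdhb21, Armcx4 and Armcx1, Tmem229b and Plekhh1, Zfp518b and Clnk, Gk5 and Tfdp2, and 4930519F16Rik and Nap1l2. At their second probe sets Tmem229b, Plekhh1, Zfp518b and Tfdp2 differed by 1.54, 0.76, 0.50 and 0.45 without passing (limma adjusted p = 0.0957, 0.612, 0.281 and 0.283). Adjacent members of a gene family can share probe sequence, so the pairs of family members are not independent of each other.

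The Akr1c cluster encodes aldo-keto reductases that act on steroids and prostaglandins. Of 10 measured members, 2 rose and 0 fell, a share changed of 20% beside 1.51% of all genes. Akr1c18, which inactivates progesterone, read 12.28 and 11.51 in 3XHMT, 8.10, 7.75 and 9.26 in Cbx3 and 7.40, 7.48 and 9.17 in control, a difference of 3.53 ± 0.60 (SE; limma adjusted p = 0.0324). Akr1c13 read 8.92 and 7.93 against 5.54, 5.95 and 5.51, with control at 5.05 to 6.05, a difference of 2.76 ± 0.36 (adjusted p = 0.0141). The Cbx3 arrays of both overlapped control. Akr1c14 of the same cluster was at 7.63 and 8.80 in 3XHMT and 7.99, 7.11 and 8.11 in Cbx3, below the 9.41 to 10.54 of control in every knockdown array, and did not differ between them past the threshold (0.48 ± 0.45, adjusted p = 0.829; 0.0315 with the block).

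Clustered beta protocadherins are cell adhesion genes with promoters of their own. Of 22 measured, 3 rose and 0 fell, a share changed of 13.6% beside 1.51% of all genes, with a median of 0.16 and 17 positive differences. They divide by placement. Pcdhb20 read 8.21 and 6.70 in 3XHMT, 5.38, 5.196 and 5.02 in Cbx3 and 5.15 to 5.62 in control (2.26 ± 0.38 SE, limma adjusted p = 0.0299), and Pcdhb21 read 5.50 and 5.74 against 4.79, 4.81 and 4.63, with control at 4.70 to 4.77 (0.87 ± 0.12, adjusted p = 0.0180; 0.20 at its second probe set). In Pcdhb17 the Cbx3 arrays were instead the ones apart, at 4.15, 3.83 and 3.71 against 5.71 and 5.75 in 3XHMT and 5.49 to 5.76 in control (1.83 ± 0.16, adjusted p = 0.00397). Pcdhb19 and Pcdhb22 differed by 0.88 and 0.77 and passed with the block alone (adjusted p = 0.0577 and 0.0689 without it).

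The X chromosome held 18 of the 147 higher genes and 4 of the 128 lower ones. That is 2.92% and 0.648% of its 617 measured genes, and over the autosomes the share of higher genes ran from 0.0946% (chromosome 1) to 1.69% (chromosome 16). Beside Nr0b1 and Eras they included Bex2 and Bex4, which encode small brain-expressed proteins, Armcx1 and Armcx4, Nap1l2 and the Polycomb-related gene Scml2. Bex2 read 9.23 and 9.34 in 3XHMT, 7.12, 7.49 and 6.30 in Cbx3 and 7.46 to 8.36 in control (2.31 ± 0.36 SE, limma adjusted p = 0.0242). Scml2 read 7.15 and 7.24 against 5.65, 5.90 and 5.77, with control at 6.21 to 6.596 (1.42 ± 0.15, adjusted p = 0.00818; 0.25 at its second probe set). The median difference over all X-linked genes was 0.03.

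In 10 of the 12 largest falls in 3XHMT relative to Cbx3 cells, every Cbx3 array read above every control array. The exceptions were Cavin2 and Arnt2. Cavin2, which encodes a caveolar coat protein, had the largest fall, from 6.77, 7.21 and 6.05 in Cbx3 to 4.65 and 3.88 in 3XHMT, with control at 5.41 to 6.58 (-2.41 ± 0.43 SE, limma adjusted p = 0.0376). Here control lay between the knockdowns and overlapped the Cbx3 range. At its second probe set Cavin2 differed by -1.79 (adjusted p = 0.264), and the mean of its probe sets gave -2.06 (adjusted p = 0.116). Palmd, which encodes palmdelphin, read 3.72 and 3.69 in 3XHMT against 5.62, 6.49 and 5.27 in Cbx3 and 3.64 to 4.14 in control (-2.09 ± 0.32, adjusted p = 0.0234).

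Cited1, a transcriptional coactivator gene, read 9.69 and 10.19 in 3XHMT, 11.91, 11.66 and 11.86 in Cbx3 and 9.54 to 10.02 in control, a difference of -1.87 ± 0.20 (SE; limma adjusted p = 0.00818). In Sh3bp5 too the Cbx3 arrays were above all control and 3XHMT arrays (-1.71 ± 0.16, adjusted p = 0.00545), though its second probe set gave -0.30 (adjusted p = 0.696). Crispld2 and Phldb2 differed by -2.03 and -1.86 (adjusted p = 0.0373 and 0.0244) with the same placement of the Cbx3 arrays.

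In Arnt2, a bHLH-PAS transcription factor gene, 3XHMT lay farther from control than Cbx3 did. It read 8.68 and 8.81 in 3XHMT against 10.19, 10.62 and 10.50 in Cbx3 and 9.68 to 10.20 in control, a difference of -1.69 ± 0.19 (SE; limma adjusted p = 0.0102). Its second probe set gave -0.60 (adjusted p = 0.132). Il13ra1, an interleukin receptor gene, differed by -2.02 ± 0.38 (adjusted p = 0.0463; -1.14 at the second probe set) and Tspan1, a tetraspanin gene, by -1.68 ± 0.27 (adjusted p = 0.0256; -0.35 at the second probe set). Alox15, a lipoxygenase gene, was above control in both knockdowns, at 6.45 and 6.52 in 3XHMT and 7.49, 8.05 and 8.50 in Cbx3 against 5.46 to 5.52 in control, and the difference between the knockdowns was -1.53 ± 0.25 (adjusted p = 0.0268).

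**Figure D3:**
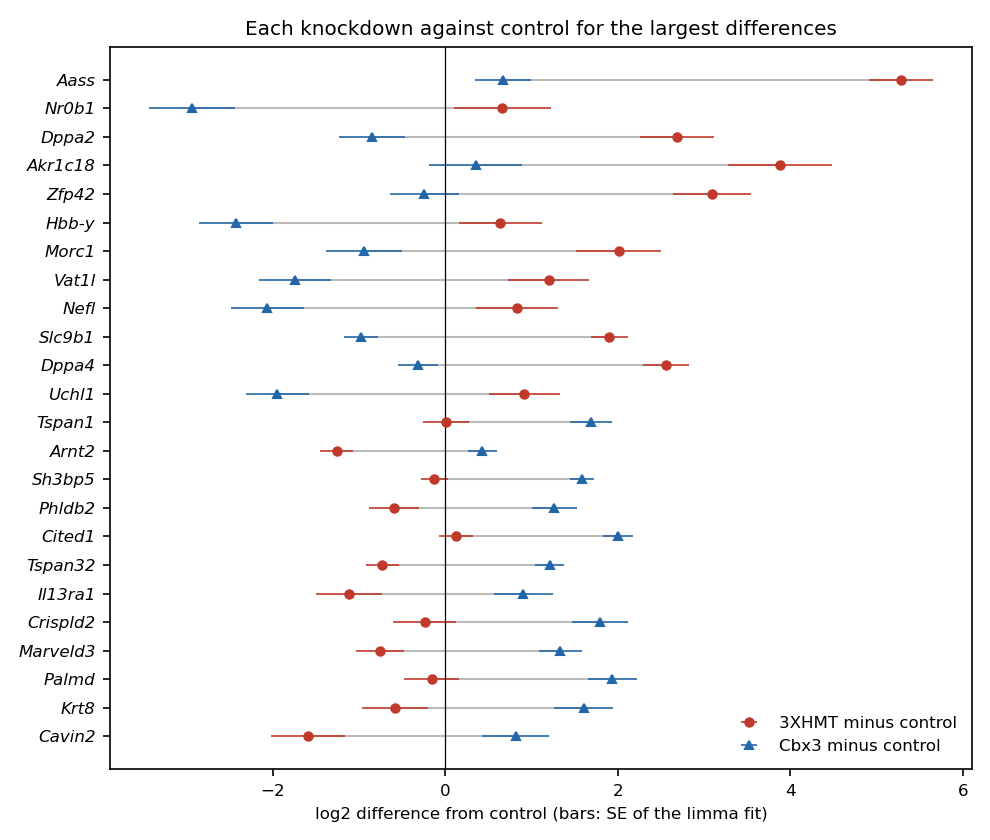
For the 12 largest rises and 12 largest falls, the log2 difference from control of 3XHMT (circles) and Cbx3 (triangles) with the SE of the limma fit; both differences share the control arrays. Aass, Zfp42 and Dppa4 have 3XHMT far from 0 and Cbx3 near it, whereas Nr0b1, Hbb-y, Cited1 and Palmd have Cbx3 far from 0 and 3XHMT near it.

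Epithelial genes were the list with the largest median shift, -0.49 over 53 measured members. By limma 4 fell, 1 rose and 48 did not pass, a share changed of 9.43% beside 1.51% of all genes, and 43 of the 53 differences were negative. With the 18S set as a block 21 fell and 2 rose, and within the 18S sets the medians were -0.58 and -0.37. Krt8, the simple-epithelium keratin gene, read 7.30 and 7.50 in 3XHMT, 9.56, 9.65 and 9.56 in Cbx3 and 7.08, 8.65 and 8.23 in control, a difference of -2.19 ± 0.38 (SE; adjusted p = 0.0336). Every Cbx3 array was above every other array. The mean of the 6 epithelial markers was also higher in each Cbx3 than in either 3XHMT array, and the part of epithelial cell numbers in the list's shift was not tested.

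Marveld3, a tight junction gene, read 5.595 and 5.47 in 3XHMT against 7.71, 7.80 and 7.35 in Cbx3 and 5.71 to 6.73 in control (-2.09 ± 0.28 SE, limma adjusted p = 0.0150), and -0.75 at its second probe set (adjusted p = 0.200). Grhl1, an epithelial transcription factor gene, differed by -0.98 ± 0.13 (adjusted p = 0.0159) and the junction scaffold gene Tjp1 by -0.72 ± 0.13 (adjusted p = 0.0415). Cdh1, the E-cadherin gene, read 10.24 and 9.96 against 10.91, 11.39 and 10.36 and did not pass (-0.79 ± 0.41, adjusted p = 0.559; 0.0442 with the block). Epcam (-0.53 ± 0.29, adjusted p = 0.595; 0.0290 with the block) and Krt18 (-0.81 ± 0.19, adjusted p = 0.0928; 0.0123 with the block) were alike in that the block alone called them.

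The epithelial gene that rose was Lama3, which encodes a chain of the basement membrane laminin. It read 9.68 and 9.22 in 3XHMT, 7.01, 6.86 and 7.25 in Cbx3 and 7.61 to 8.13 in control (2.41 ± 0.21 SE, limma adjusted p = 0.00446), but -0.09 at its second probe set. Other basement membrane genes went both ways. Nid1, the nidogen gene, was higher by 1.61 ± 0.23 (adjusted p = 0.0175; 0.53 at the second probe set), and Col4a2, a collagen IV gene, differed by -1.46 ± 0.26 (adjusted p = 0.0379). Col4a5 differed by -1.68 ± 0.21 (adjusted p = 0.0118; -0.665 at its second probe set). Over the 40 genes of the primitive endoderm and basement membrane list 1 rose and 3 fell (Thbd, Col4a2 and Cited1), with a share changed of 10% beside 1.51% of all genes and a median of -0.03. The block called 3 higher and 6 lower.

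Trophoblast genes had a negative median too. Of 42 measured, 2 fell and 0 rose, 34 differences were negative and the median was -0.15. The share changed was 4.76%, beside 1.51% of all genes, and the block called 0 higher and 8 lower. The 2 were Krt8, which is in both lists, and Tinagl1 (-0.64 ± 0.12 SE, limma adjusted p = 0.0433). The trophoblast transcription factor genes Tfap2c and Gata2 differed by -1.25 ± 0.29 and -0.75 ± 0.16 without passing (adjusted p = 0.0913 and 0.0620; 0.0108 and 0.00849 with the block). Hox genes had a median of -0.17 over 33 members, of which Hoxd13 fell (-1.10 ± 0.20, adjusted p = 0.0387; -0.41 at its second probe set) and 0 rose. That is a share of 3.03%, and the block called 0 higher and 5 lower Hox genes.

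**Figure D4:**
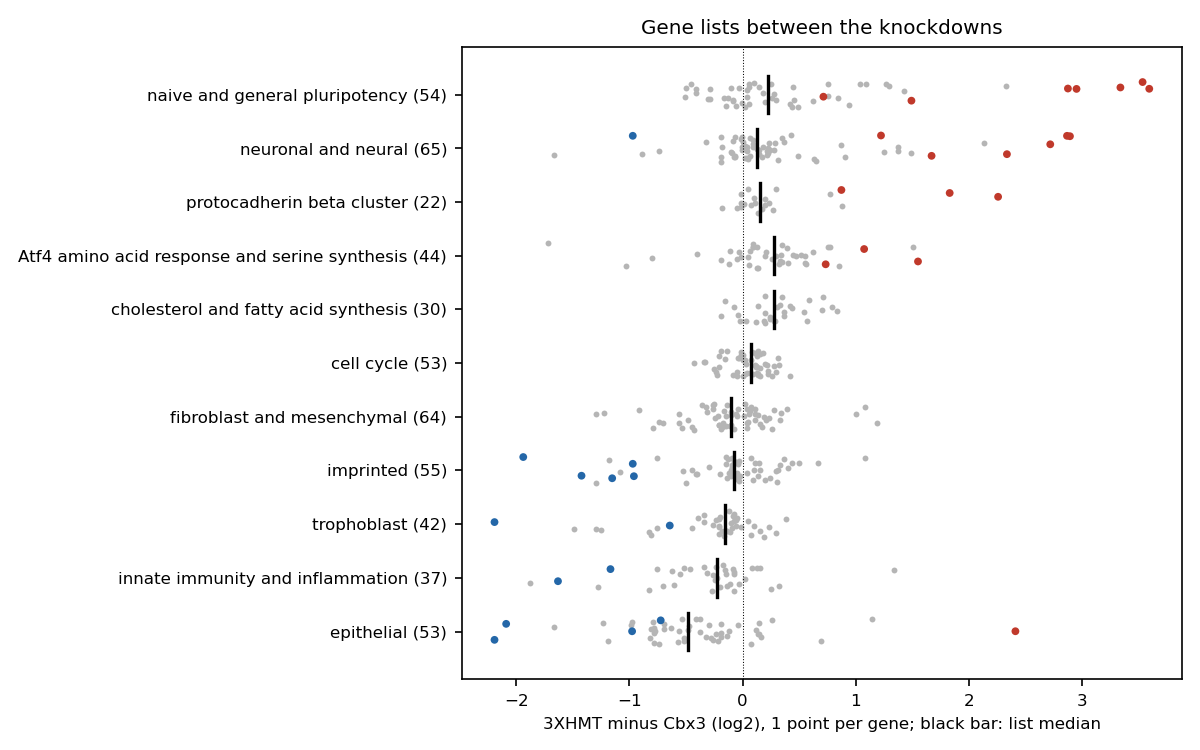
Log2 difference of 3XHMT minus Cbx3 for the measured members of 11 gene lists, 1 point per gene, with changed genes in red (higher) or blue (lower), other members in grey, a black bar at the list median and the number of members in brackets. The pluripotency list has 7 red points and a median of 0.23, and the epithelial list has 4 blue points, 1 red point and a median of -0.49; vertical position within a list carries no value.

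Of 55 imprinted genes, 5 fell in 3XHMT relative to Cbx3 cells and 0 rose, with a median of -0.08. Tspan32 read 7.63 and 7.51 in 3XHMT against 9.61, 9.52 and 9.40 in Cbx3 and 7.95 to 8.64 in control (-1.94 ± 0.19 SE, limma adjusted p = 0.00741), and Igf2, a fetal growth factor gene, read 7.38 and 7.34 against 8.74, 8.82 and 8.79, with control at 6.69 to 7.59 (-1.42 ± 0.25, adjusted p = 0.0350). At their second probe sets they differed by -0.37 and 0.06 (adjusted p = 0.356 and 0.975). Pon3 and Osbpl5 fell by 1.15 and 0.96 (adjusted p = 0.0150 and 0.0251), and Ppp1r9a, given above, is the fifth. The share changed was 9.09%, beside 1.51% of all genes, and the block called 1 higher and 10 lower.

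Genes of inflammation had a negative median as well. Over 37 measured innate immunity genes 2 fell, 0 rose, 30 differences were negative and the median was -0.23. The share changed was 5.41%, beside 1.51% of all genes, and the block called 1 higher and 8 lower. Chil1, a chitinase-like protein gene, read 7.34 and 6.92 in 3XHMT against 8.65, 8.71 and 8.92 in Cbx3 and 6.32 to 7.38 in control (-1.63 ± 0.29 SE, limma adjusted p = 0.0355), and the complement gene C1s1 differed by -1.17 ± 0.18 (adjusted p = 0.0230). Csf1 and Nfkbia, a macrophage growth factor gene and an NF-kappa B inhibitor gene, differed by -0.71 ± 0.14 and -0.60 ± 0.12 and passed with the block alone (adjusted p = 0.0548 and 0.0585; 0.0152 and 0.0120 with it). The immediate early genes Zfp36 and Nr4a1, chosen after their values were seen, differed by -1.26 ± 0.16 and -1.24 ± 0.23 (adjusted p = 0.0118 and 0.0437).

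Genes of amino acid supply had a positive median. Of 44 genes of the Atf4 response and serine synthesis, 3 rose and 0 fell, 34 differences were positive and the median was 0.28. The share changed was 6.82%, beside 1.51% of all genes, and the block called 14 higher and 1 lower. Slc7a11, the cystine transporter gene, read 7.42 and 7.94 in 3XHMT against 6.53, 5.95 and 5.92 in Cbx3 and 7.58 to 8.40 in control (1.55 ± 0.29 SE, limma adjusted p = 0.0404; 0.93 at its second probe set). The cationic amino acid transporter gene Slc7a1 differed by 1.08 ± 0.20 (adjusted p = 0.0400) and Cth, which encodes cystathionine gamma-lyase, by 0.74 ± 0.13 (adjusted p = 0.0376). The call of Slc7a1 was lost under each omission of 1 array (adjusted p up to 0.185). Shmt2, of mitochondrial serine breakdown, differed by 0.62 ± 0.13 (adjusted p = 0.0616; 0.00550 with the block).

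Cholesterol and fatty acid synthesis genes had the same median, 0.28, over 30 members with 25 positive differences. By limma 0 passed, while 8 had an unadjusted p under 0.05, all higher, and the block called 11 higher and 0 lower. Over all genes these shares were 11.4% and 9.12% in either direction. Cyp51 and Hsd17b7, enzymes between lanosterol and cholesterol, differed by 0.83 ± 0.22 and 0.57 ± 0.13 (SE; adjusted p = 0.136 and 0.0786; 0.0117 and 0.00833 with the block). Cyp51 read 8.76 and 8.71 in 3XHMT against 8.002, 7.80 and 7.90 in Cbx3, and 8.79, 8.01 and 8.72 in control. Within the 18S sets the list medians were 0.28 and 0.45.

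Chromatin genes were followed by list. The list of H3K9 methyltransferases and cofactors includes the siRNA targets Ehmt2 and Setdb1. Both are in its counts of 6 and 4 given next, so these counts do not describe untargeted genes alone. Among 17 H3K9 methyltransferases and cofactors, 14 H3K9 demethylases and 18 HP1 family and reader genes 0 passed by limma, with 6, 1 and 0 members at an unadjusted p under 0.05, and the block called 4, 2 and 0. Of all genes 11.4% had such a p-value, and the block called 9.12%. The HP1 genes Cbx1 and Cbx5 differed by 0.05 ± 0.13 and 0.13 ± 0.24 (SE; adjusted p = 0.967 and 0.948). Atf7ip, which encodes the Setdb1 partner MCAF1, differed by 0.72 ± 0.15 (adjusted p = 0.0689; 0.00929 with the block), at 10.45 and 10.44 against 9.75, 9.63 and 9.81. Outside these lists, and chosen after their values were seen, the deacetylase gene Hdac2 and the trithorax-related gene Ash2l were higher by 0.67 ± 0.12 and 0.60 ± 0.11 (adjusted p = 0.0363 and 0.0395), and Hdac7 and the heterochromatin gene Bahd1 were lower, differing by -0.95 ± 0.13 and -0.80 ± 0.16 (adjusted p = 0.0159 and 0.0496). At their second probe sets Ash2l, Hdac2 and Hdac7 differed by 0.05, 0.76 and -0.54 and did not pass (adjusted p = 0.993, 0.0830 and 0.104), and the mean of the Hdac2 probe sets did not pass either (0.54, adjusted p = 0.0843).

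Beside the Hox genes, lists with 1 member changed were those of 2-cell stage genes (Usp17la, 1.12 higher), the Klk1 kallikrein cluster (Klk1b27, 1.23 higher), FGF and MAPK feedback (Etv4, 1.01 higher; 0.37 at its second probe set), p53 targets (Trp53inp1, 0.79 higher; 0.41 at its second probe set), Wnt signalling (Prickle2), DNA methylation and Polycomb (Phc1), eicosanoid enzymes (Alox15), and heat shock and oxidative stress (Gpx2, -1.11). The shares changed in these lists ran from 2.27% (Wnt signalling, and DNA methylation and Polycomb) to 11.1% (Klk1 cluster), beside 1.51% of all genes. In the FGF and MAPK list 25 of 40 differences were negative, with a median of -0.07. There 4 higher and 10 lower members had an unadjusted p under 0.05, and the block called 3 higher and 8 lower. TGF-beta signalling had 0 higher and 2 lower, Cited1 and Tgfb3 (-0.86), a share of 5.26%. Of fibroblast and mesenchymal (64 measured), germline (71), interferon (47), glycolysis (36), cell cycle (53), macrophage and endothelial (35) and mesendoderm genes (34), 0 passed by limma, with 13, 9, 5, 4, 2, 6 and 0 members at an unadjusted p under 0.05. The block called 3 higher and 6 lower fibroblast genes, 4 higher and 3 lower germline genes, and 3 higher and 2 lower in both the glycolysis and the macrophage and endothelial lists. It called 0 higher and 1 lower in both the interferon and the cell cycle lists, and 0 mesendoderm genes. Over all genes 11.4% had an unadjusted p under 0.05, and the block called 9.12%. Dcn and Mmp2 of the fibroblast list came closest, at 1.09 ± 0.21 and 1.19 ± 0.24 (SE; limma adjusted p = 0.0513 and 0.0585; 0.0116 and 0.0101 with the block), but Dcn differed by -0.02 at its second probe set, and Thy1 differed by -0.25 ± 0.30.

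The 2 knockdowns were placed against control for the 275 genes, with the caution that both comparisons share the control arrays. Of the 147 higher genes, the control mean lay between the knockdowns for 121, above both for 10 and below both for 16. Over all genes it lay between for 42.1%, above for 26.6% and below for 31.3%, although a choice of genes by a large difference between the knockdowns itself favours control lying between them. The median difference from control over the 147 was 0.62 for 3XHMT and -0.55 for Cbx3. Against control, 30 of them were called in 3XHMT, 19 in Cbx3, 0 in both and 98 in neither.

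Of the 128 lower genes, control lay between for 106, above both for 6 and below both for 16. The medians were -0.42 for 3XHMT and 0.65 for Cbx3, and 4 were called against control in 3XHMT, 31 in Cbx3, 0 in both and 93 in neither. Cbx3 lay farther from control for 77 of the 128 lower genes and for 74 of the 147 higher ones. Tbx18, a T-box gene outside the 275, read below control in every knockdown array: 5.68 and 5.69 in 3XHMT and 6.71, 6.15 and 6.29 in Cbx3 against 7.57 to 7.73 in control, with a difference between the knockdowns of -0.70 ± 0.17 (SE; limma adjusted p = 0.101; 0.0214 with the block).

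Other probe sets of the same genes bear on these values. Of the 275 changed genes, 136 had more than 1 probe set, with 254 further probe sets. Of these, 215 differed in the same direction, 122 of them with an unadjusted p under 0.05, and 34 genes had at least 1 probe set of the opposite sign. Signal near background compresses differences. Below the median level of all genes, 7.10, lay both knockdown means of 43 of the higher and 35 of the lower genes. That cut is a middle level and not background, so these counts do not tell how many genes lay near background.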

How the data were processed

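Total RNA of 8 samples was measured on Affymetrix arrays. The deposited table holds log2 values for 45101 probe sets, computed by the authors using RMA, per the submitters' processing notes; the version is not given in the sources used here. RMA quantile-normalizes arrays, so a shift shared by most genes is removed. The number of arrays limits the precision.

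The platform annotation gave 1 symbol to 34945 probe sets, several to 932 and none to 9160, and 64 control probe sets were left out. The model held 1 mean per group over the 8 arrays and was fitted by limma 3.58.1 under R 4.3.3 (lmFit, then eBayes; two-sided; Benjamini-Hochberg adjusted p under 0.05 over 18193 genes; targets over all probe sets). The fit was tested on simulated data. Errors written ± are SE of this fit, and all differences are on the log2 scale.

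Genes were named by rule: the 4 targets, the 12 largest rises and falls among changed, non-overlapping genes with names, up to 4 members of lowest p in each of 32 gene lists (1223 of 1341 entries measured), and a short set of pluripotency, epithelial and heterochromatin genes. Eras, Arpp21, Tjp1, Igf2, Col4a5, Krt18, Stmn2, Akr1c14, Pcdhb22, Scml2, Bex2, Bex4 and the genes of adjacent runs that the rule had not named were named after their values were seen. The members, lists and the 18S block were chosen with earlier results of these data known. Suv39h1 was not analysed here. Alternatives were the 5 knockdown arrays alone, the replicate number or 18S set as a block, other probe sets of a gene, a filter on dim genes, cyclic loess, other variance settings and leaving out each array.

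The replicate numbers of the knockdown arrays did not follow the 18S sets. Knockdown arrays of the same number correlated in their deviations from the group means by 0.24 (number 1) and -0.50 (number 2). The deviations of the 2 3XHMT arrays mirror each other. The -0.50 is therefore the 0.50 of 3XHMT 1 with Cbx3 2 with its sign turned, and not a separate value. Control and Cbx3 arrays of the same number shared an 18S set and correlated by 0.57, 0.59 and 0.74.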

Additional observations from a re-analysis of the deposited data

How the results depend on the processing

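With the replicate block, the replicate number of the labels as a block, 655 genes changed (286 higher, 369 lower), 268 of the 275 among them. The numbers of the knockdown arrays did not follow the 18S sets. With the 18S set as a block 1660 changed (854 higher, 806 lower). Without genes below the median level 127 changed (59 and 68), at each gene's second probe set 165 (93 and 72), and without variance moderation 3 (2 and 1). Leaving out 1 array gave 22 to 273 changed genes, 17 to 143 higher and 3 to 134 lower. The 5 knockdown arrays alone, the mean of probe sets, the omission of probe sets that can match several transcripts, cyclic loess, trend and robust variance, and all probe sets as units each gave a count within 1.5 times of 275. With 1 of the 3XHMT arrays left out, the lone array is assumed to vary like the other groups.

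Of the 85 changed genes followed by name, 6 passed under all 8 omissions (Aass, Dppa4, Lama3, Mgat4c, Pcdhb17 and Slc9b1), and Slc7a1, Ash2l and Bahd1 under none. The second probe set turned the sign of Lama3 (-0.086), Igf2 (0.062), Dcn (-0.023) and Cbx5 (-0.143), and the mean of probe sets that of Cbx1 (-0.003) and Cbx5 (-0.073). Leaving out 1 array gave differences of either sign for Cbx1 (-0.038 to 0.128), Cbx5 (-0.179 to 0.436), Sox2 (-0.999 to 0.397), Akr1c14 (-0.11 to 1.064) and Ehmt1 (-0.359 to 0.069), none of which had passed. The cause was not tested. The brightest Cbx3 probe set was lost with the replicate block (adjusted p = 0.0519) and under each omission (0.0503 to 0.218). The medians of the Atf4 list (0.20 with the 18S block and with the second probe set) and the epithelial list (-0.38 with the second probe set) moved most; the other 93 comparisons of list medians did not move past their limit.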
